A study of Mus musculus with 8 samples.

Results

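The genes described are the water channels of the kidney and the receptor that regulates them: the aquaporins Aqp1, Aqp2, Aqp3, Aqp4, Aqp5, Aqp6, Aqp7 and Aqp11, and the vasopressin receptor Avpr2. They were chosen by symbol as 9 of the 32285 genes counted in the single-cell library, and all 9 were found. The measurements come from kidneys of male mouse embryos at embryonic day 17.5 by the labels (the study's methods give an age a day later), in which Trim28, a chromatin co-repressor, was deleted conditionally. The group labelled ko holds 2 Trim28delta/delta embryos (Trim28Δ/Δ, mice 1 and 2) and the group labelled wt holds 2 Trim28f/f embryos (mice 3 and 4). The floxed allele was recombined by a cre transgene under the Six2 promoter, which is active in nephron progenitors, so that deletion passes to the nephron from podocyte to distal tubule but not to collecting duct, stroma or endothelium. Both groups carry the floxed allele, and the labels do not say whether the Trim28f/f embryos carried the transgene. Cells of all 4 mice were tagged with multiplexing oligonucleotides and run as a single pool, so each value is one of 4 mice and cells are not replicates. Another 6 samples of bulk RNA were not analysed here.

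Aquaporins are membrane channels for water, and some of them also pass glycerol. In the proximal tubule, Aqp1 carries the bulk of water reabsorption across both cell faces, Aqp7 takes up glycerol, and Aqp11 lies in the endoplasmic reticulum, where its loss leads to cystic kidneys in mice. In principal cells of the collecting duct, vasopressin binds Avpr2 on the basolateral side, cAMP rises, and vesicles that hold Aqp2 move to the apical membrane, while water leaves through Aqp3 and Aqp4 on the other side. The connecting tubule, the last segment that arises from the nephron, also uses Aqp2 and Aqp3. Aqp6 sits in intracellular vesicles of acid-secreting intercalated cells, and Aqp5 is best known from glands and lung.

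Aqp2, Aqp5 and Aqp6 lie side by side on chromosome 15 on the same strand. In the GRCm38 annotation Aqp2 spans chr15:99579055-99584547, the gap from Aqp2 to Aqp5 is 6234 bases and that from Aqp5 to Aqp6 is 6570 bases. Aqp7 and Aqp3 neighbour each other on chromosome 4, both on the minus strand and 44582 bases apart, and Aqp3 spans chr4:41092722-41098183. Avpr2 (chrX:73892102-73895502, plus strand) lies wholly inside the annotated bounds of L1cam and Arhgap4 on the opposite strand. L1cam reached 76.6 CPM (UMI counts scaled to a fixed total) in principal-like cells of the wt mice and Arhgap4 2.89 CPM, and the sources used here do not name the strand setting of the counting, so the values of Avpr2 are uncertain to that extent. The same holds for Aqp4, which has an annotated antisense gene.

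The start regions of Aqp2 and Aqp3 are shown because these genes were lower together in distal tubule-like cells of Trim28Δ/Δ mice. Both come from RefSeq (GRCm38.p6) and run 5′ to 3′ on the gene's strand, from 250 bases before the start to 50 after it. The Aqp2 region is chr15:99578806-99579105 (plus strand, 56.0% G or C) and the Aqp3 region is chr4:41098134-41098433 (minus strand, 64.0% G or C). Capitals mark the letters found in the motif search described next.
Aqp2: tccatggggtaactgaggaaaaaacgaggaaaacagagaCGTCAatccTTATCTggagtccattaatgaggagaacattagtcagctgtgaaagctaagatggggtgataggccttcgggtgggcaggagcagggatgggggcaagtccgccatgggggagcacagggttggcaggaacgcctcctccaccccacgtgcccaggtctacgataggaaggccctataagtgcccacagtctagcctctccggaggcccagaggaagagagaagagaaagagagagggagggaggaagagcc
Aqp3: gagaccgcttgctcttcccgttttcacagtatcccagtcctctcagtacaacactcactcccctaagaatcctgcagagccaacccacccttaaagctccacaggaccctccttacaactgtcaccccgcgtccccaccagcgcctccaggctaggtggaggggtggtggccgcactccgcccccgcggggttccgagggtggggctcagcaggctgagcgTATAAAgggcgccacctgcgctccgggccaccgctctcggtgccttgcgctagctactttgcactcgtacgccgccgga

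The motifs searched on both strands were TGACGTCA, the cAMP response element, its shorter form TGACG, which reads CGTCA on the other strand, and the GATA factor site AGATAA, which reads TTATCT there. TATAAA was searched on the gene's strand only. The full element contains the shorter form, so a match to it counts under both. Of 32851 promoters of this length, 1.79% held the full cAMP response element, 20.8% the shorter form, 11.2% the GATA letters and 8.32% TATAAA. The Aqp2 region held CGTCA with its first base at -211 and TTATCT at -202, and Aqp3 held TATAAA at -29, counted from the start. Among the other aquaporins with a RefSeq promoter, AGATAA at -132 of an Aqp7 start was the remaining match. These matches are letters in a window and say nothing of binding.

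Trim28, the targeted gene, is given first. In nephron progenitor-like (NPC-like) cells, Trim28 was at 28.2 and 24.1 CPM in the ko mice and at 137 and 160 CPM in the wt mice. In proximal tubule-like (PT-like) cells it was at 20.9 and 23.4 CPM against 57.2 and 72.4 CPM. Distal tubule-like cells gave 19.9 and 31.5 CPM against 85.1 and 66.7 CPM. In principal-like cells, which do not arise from Six2-expressing progenitors, Trim28 was at 87.8 and 115 CPM against 76.0 and 98.6 CPM. The 3′ end that is counted lies outside the deleted segment, so these levels do not measure the deletion itself; in the nephron classes both ko mice lay below both wt mice.

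The analysed cells numbered 1316 and 1491 in the ko mice and 2749 and 1807 in the wt mice, with 25761268, 31087277, 52777501 and 35851952 unique molecular identifiers (UMIs) on genes. They formed 24 clusters, of which 18 were named from marker genes into 15 classes, and none of the 9 genes served as a marker or in the clustering. Mouse 3 stood apart: it gave 174 of the 175 cells of cluster 15, which was named principal-like and was led by Elf3, Rnf186, Klf5, S100a14 and Sprr2f, and 103 of the 105 cells of cluster 20. Of the other principal-like cluster, cluster 10, it gave 5 of 332 cells. Changes that turned on mouse 3 are therefore given with and without it. Levels are CPM, the UMIs of a gene scaled to the UMIs of all genes in a class and mouse, and 3′ counting takes each transcript once, so no scaling by length was made. RNA free in the suspension also carried these genes. Barcodes with 10 to 100 UMIs held Aqp2 at 216 CPM, Aqp1 at 38.3 CPM, Aqp3 at 35.4 CPM and Avpr2 at 7.27 CPM. NPC-like cells, a class that should lack the channel, held Aqp2 at 21.5 to 24.1 CPM. Their mean ranked 17 among the 19 classes and clusters with at least 10 cells in every mouse. The highest value of a mouse was 229 CPM in podocyte-like, 183 CPM in erythroid-like, 171 CPM in mural-like and 151 CPM in immune-like cells. The part of free RNA in such levels was not tested.

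Among the classes and clusters with at least 10 cells in every mouse, each gene apart from Aqp5 and Aqp1 had its highest mean level over the 4 mice in the segment it is known from. Aqp1 peaked in an unnamed cluster whose best marker lists were those of the early proximal and proximal tubule. Aqp2 was highest in principal-like cells at 2904 and 3055 CPM in the ko mice and 939 and 3881 CPM in the wt mice (mean 2695 ± 1247, SD, n = 4, and 3280 CPM without mouse 3). Aqp3 (367 ± 45.9 CPM), Aqp4 (238 ± 75.5 CPM), Aqp5 (24.1 ± 11.0 CPM) and Avpr2 (51.1 ± 7.72 CPM) were also highest there. Aqp6 was highest in intercalated-like cells (133 ± 52.5 CPM). Aqp11 (85.9 ± 13.3 CPM) and Aqp7 (14.1 ± 0.855 CPM) were highest in PT-like cells. Aqp1 was highest in cluster 5 (213 ± 40.2 CPM) and second in PT-like cells (116 ± 15.1 CPM). Cluster 5 was led by Aadat, Cryab, Serpina6, Slc7a12 and Serpina1a and stayed without a name. Its highest mean log2 ratios of markers to other clusters were 0.97 for early proximal tubule and 0.80 for proximal tubule. The label of the set thus fitted its genes: 5 of 9 peaked in the principal-like class, where vasopressin acts.

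**Figure D1:**
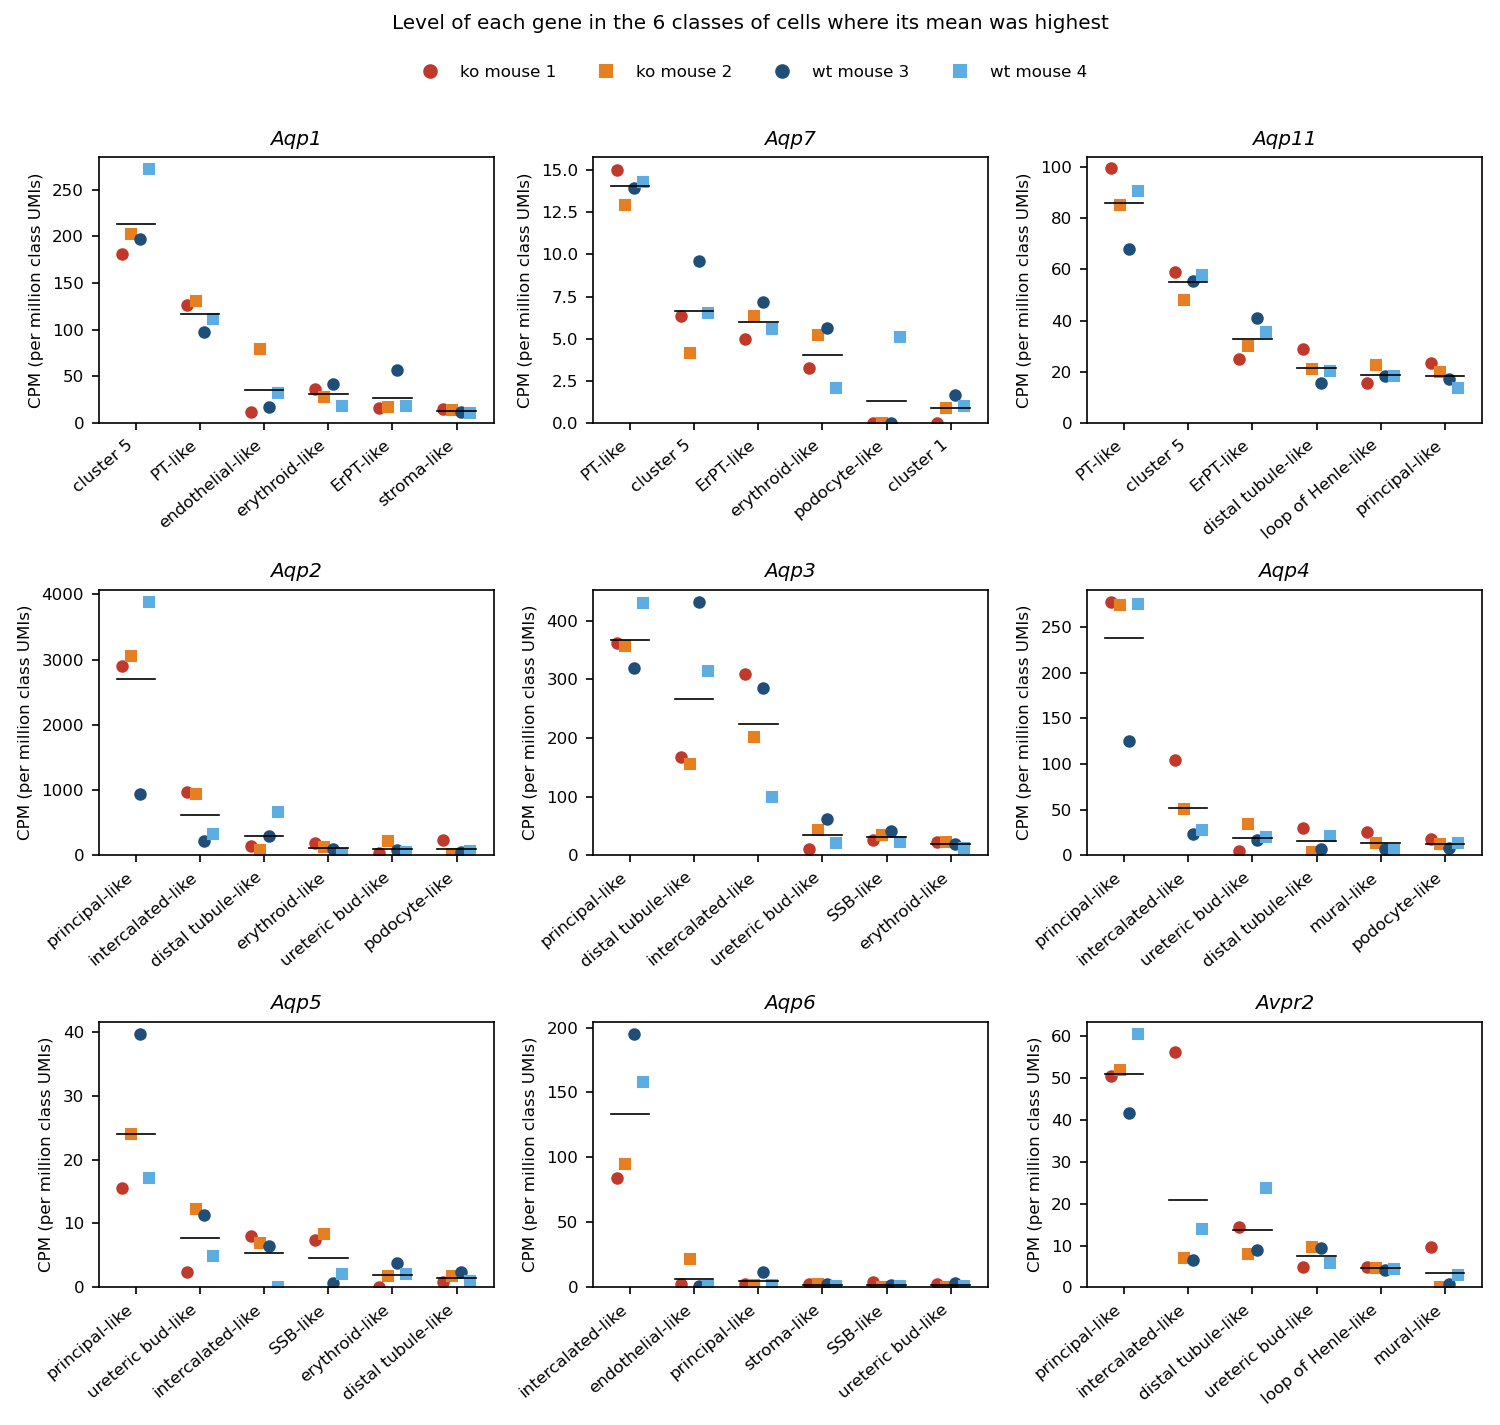
Levels of the 9 genes in CPM (linear axes) in the 6 classes or clusters where each had its highest mean; points are the 4 mice and black lines their means. Aqp2 in principal-like cells sits between 2904 and 3881 CPM in 3 mice and at 939 CPM in mouse 3, and Aqp7 in PT-like cells lies within 12.96 to 15.02 CPM in all 4.

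The order of neighbouring classes was firm for some genes and not for others. Aqp4 in principal-like cells was above intercalated-like cells (51.5 ± 37.4 CPM, second), with ranges over the mice that did not overlap. Aqp6 in intercalated-like cells was likewise above the endothelial-like class (6.77 ± 10.1 CPM, second). The same held for Aqp5, Aqp7 and Aqp11. For Aqp1 the ranges of cluster 5 and PT-like cells did not overlap either, but at a coarser clustering, without Scrublet doublets and at a lower UMI minimum the PT-like class came first, at 135, 136 and 145 CPM. For Aqp2, Aqp3 and Avpr2 the range in principal-like cells overlapped that of the class ranked second, which was the intercalated-like class for Aqp2 and Avpr2 and the distal tubule-like class for Aqp3. Within each mouse, however, Aqp2 was higher in principal-like than in intercalated-like cells in 4 of 4 mice. Aqp3 in principal-like cells exceeded its level in distal tubule-like cells except in mouse 3. Avpr2 there exceeded its level in intercalated-like cells except in mouse 1. Below these, Aqp1 was at 35.2 ± 30.7 CPM in endothelial-like, 31.0 ± 9.91 CPM in erythroid-like and 27.1 ± 19.8 CPM in early proximal tubule-like (ErPT-like) cells. These means did not differ beyond their spread, and all lay below the 38.3 CPM of Aqp1 in free RNA. Cluster 22, an unnamed cluster led by Tm4sf1, Sox17, Gja4, Stmn2 and Eln with 77 cells, held Aqp1 at 412, 643, 139 and 530 CPM in mice 1 to 4, but mouse 3 gave 5 of its cells and it was not tested.

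Most principal-like cells held each of the main water-channel genes. After each cell was thinned to 6800 UMIs, Aqp2 was seen in 92.7 to 100% of them, Aqp3 in 74.0 to 88.3% and Aqp4 in 50.3 to 80.3%. In NPC-like cells, a background, the shares were 8.33 to 15.9%, 3.08 to 4.17% and 0 to 2.74%. In podocyte-like cells they were 18.5 to 36.4%, 0 to 15.4% and 0 to 4.62%. All of Aqp2, Aqp3 and Aqp4 were found in 70.3% and 59.8% of principal-like cells in the ko mice and 42.5% and 66.7% in the wt mice. With single shares this high the joint share says little on whether they go together cell by cell. Without thinning, an Avpr2 UMI was seen in 48.6% and 55.9% of cells against 49.2% and 53.3%. In NPC-like cells, as a background, an Avpr2 UMI was seen in 0 to 2.08% of cells, at median depths of 16905 to 19004 UMIs per cell against 14658 to 16685 in principal-like cells.

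Across the 19 classes and clusters with at least 10 cells in every mouse, the genes most like each member in the mean of the wt mice were found by Pearson's r of log2(CPM + 1), as a description over 19 points from the same 2 mice. Aqp2 was most like Fxyd4 (r = 0.95), a regulator of the sodium pump, Tff2 (0.94) and Elf5 (0.93), a transcription factor. Aqp3 was most like Scnn1b (0.96), a subunit of the epithelial sodium channel, and Avpr2 was most like Aqp3 itself (0.95). Aqp4 was closest to S100a14, Fxyd4 and Elf5 (each 0.93), and Aqp5 to Srcin1 (0.92). Aqp1 was most like Slc5a8 (0.94), a monocarboxylate transporter, Mep1a (0.94), a brush border protease, and Slc6a18 (0.93), an amino acid transporter. Aqp11 was most like Hoga1 (0.97) and Aqp6 like Gm47662 (0.95) and Dmrt2 (0.93).

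Whether Trim28 deletion changed these genes was asked in each class by edgeR's quasi-likelihood test on UMIs summed per mouse. Of 75 pairs of a member and a class that could be tested, 2 passed an adjusted p of 0.05. Both were in distal tubule-like cells and both were lower in Trim28Δ/Δ mice. Another measure, an unadjusted p under 0.05, was met by 14 pairs. Over all genes the share with such a p was lowest in principal-like cells (333 of 10912) and highest in PT-like cells (1245 of 11506). DESeq2 also gave 2 pairs past the threshold, of which 1 was shared. In distal tubule-like cells 2 of 5 members tested fell, where 0.281% of 9244 genes were lower and 0.671% changed in either direction. Over all classes, 0.32% of gene-by-class pairs were called. In the other 18 classes and clusters no member passed. Among those not described further, the share of genes called was 1.66% in NPC-like cells, 0.408% in ErPT-like, 0.325% in cluster 7, 0.204% in cluster 1, 0.165% in podocyte-like, 0.0684% in loop of Henle-like, 0.0288% in immune-like, 0.0276% in cluster 14 and 0% in stroma-like, mural-like, erythroid-like and ureteric bud-like cells. Nothing in the labels says whether the 2 embryos of a group came from separate litters, so the p-values measure the spread between these mice.

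Distal tubule-like cells held less Aqp2 and Aqp3 in Trim28Δ/Δ mice. Aqp2, the vasopressin-regulated channel, was at 140 and 72.6 CPM in the ko mice and at 297 and 658 CPM in the wt mice. Both ko mice lay below both wt mice. The log2 fold change was -2.17 (SE 0.37, 95% interval -2.96 to -1.38, adjusted p = 0.0149, edgeR). Aqp3, the basolateral exit channel, was at 167 and 155 CPM against 432 and 315 CPM, again without overlap. Its log2 fold change was -1.24 (SE 0.21, 95% interval -1.69 to -0.80, adjusted p = 0.0148, edgeR). Without mouse 3 the fold changes in edgeR were -2.66 for Aqp2 (adjusted p = 2.7e-28) and -1.01 for Aqp3 (adjusted p = 3.7e-04), among 1.7% of genes called, and without mouse 4 they were -1.46 (adjusted p = 1.3e-10, edgeR) and -1.42 (adjusted p = 8.7e-09, edgeR), among 5.85% of genes called. Each of these fits has a lone wt mouse, which is assumed to vary like the others. Without ko mouse 1 the Aqp2 change was -2.76, with a lone ko mouse, and at a coarser clustering it was -1.23 (adjusted p = 0.0493, edgeR). The Aqp2 call was lost with DESeq2 (-2.19, adjusted p = 0.411) and with another assignment of cells to mice (-1.98, adjusted p = 0.117, edgeR), and the Aqp3 call without ko mouse 2 (-1.16, adjusted p = 0.225, edgeR) and at the coarser clustering (-0.88, adjusted p = 0.341, edgeR).

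The other members tested in these cells did not pass. Avpr2 was at 14.4 and 7.87 CPM against 8.87 and 23.7 CPM, and its groups overlapped (log2 fold change -0.37, 95% interval -1.51 to 0.76). Aqp4 was at 30.3 and 3.50 CPM against 7.26 and 21.5 CPM, with an interval of -1.04 to 1.96 that leaves a change of either sign. Aqp11 was at 28.7 and 20.98 CPM against 15.7 and 20.4 CPM (log2 fold change 0.49, 95% interval -0.22 to 1.21).

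The lower Aqp2 sum went with fewer cells rich in Aqp2. The distal tubule-like class had 56 and 39 cells in the ko mice and 101 and 40 cells in the wt mice. Cells with at least 5 Aqp2 UMIs were 9 of 56 (16.1%, 95% Clopper-Pearson interval 7.62 to 28.3%) and 2 of 39 (5.13%, 0.627 to 17.3%) in the ko mice. They were 34 of 101 (33.7%, 24.6 to 43.8%) and 17 of 40 (42.5%, 27.0 to 59.1%) in the wt mice. Within those cells Aqp2 was at 765 and 775 CPM against 704 and 1330 CPM. These cells were chosen by their Aqp2 UMIs and ko mouse 2 gave 2 of them, so the values do not tell whether the level per cell differed. In the remaining cells it was at 23.7 and 26.1 CPM against 35.7 and 25.1 CPM, near the NPC-like level, and no NPC-like cell had 5 or more UMIs. For Aqp3, cells with at least 5 UMIs were 37.5% and 33.3% against 51.5% and 42.5%, and the level within them was 409 and 382 CPM against 711 and 603 CPM, both lower in the ko mice, although these cells were chosen by Aqp3 itself. Intervals of shares cover counting error only.

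**Figure D2:**
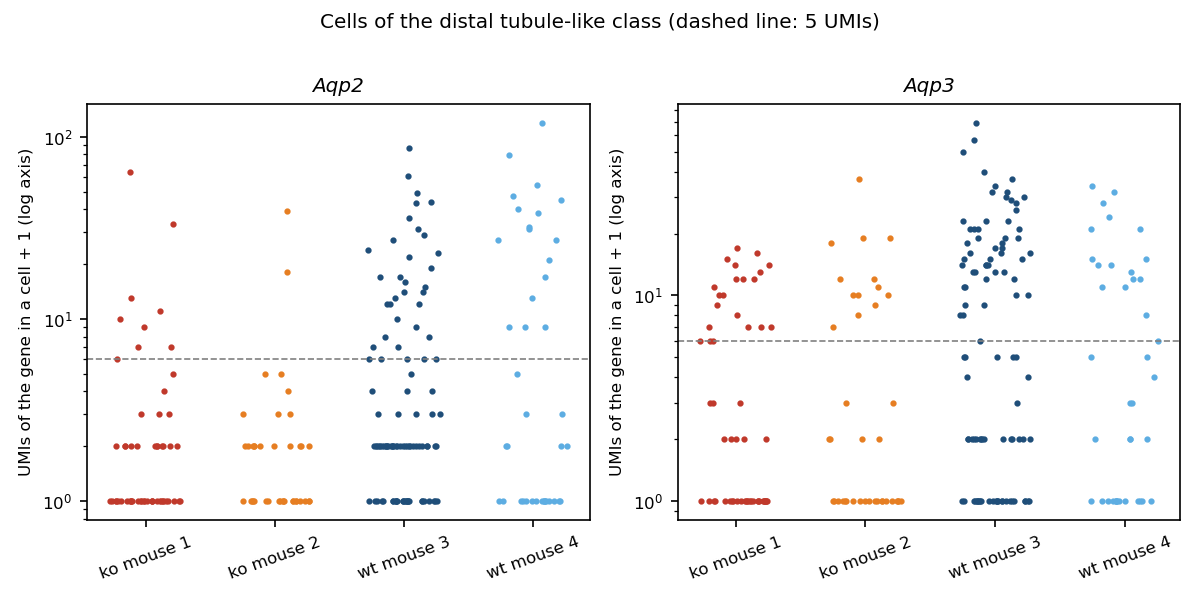
UMIs of Aqp2 and Aqp3 in each distal tubule-like cell, by mouse (each point is a cell). Cells with at least 5 Aqp2 UMIs number 9 and 2 in the ko mice and 34 and 17 in the wt mice.

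Median UMIs per distal tubule-like cell were 18621 and 18347 in the ko mice and 19279 and 21139 in the wt mice. Summed over cells they were 1253987 and 1143983 UMIs from 56 and 39 cells against 2480421 and 930090 from 101 and 40 cells, so that by the mean the cells of ko mouse 2 were the deepest. After thinning to 6800 UMIs per cell, which left out no cell, Aqp2 was seen in 25.0% and 25.6% of cells against 50.5% and 50%. Unthinned, the shares were 46.4% and 48.7% against 73.3% and 60.0%. The background in NPC-like cells was 8.33% and 13.7% against 15.9% and 14.9% thinned, and 34.6 to 38.4% unthinned. In podocyte-like cells the thinned Aqp2 shares were higher, at 22.2% and 18.8% against 18.5% and 36.4%. The thinned ko shares of distal tubule-like cells lay within that range. Aqp3 was seen in 37.5% and 35.9% against 59.4% and 55.0% of distal tubule-like cells after thinning, with 3.08 to 4.17% of NPC-like cells as background. Its thinned shares in podocyte-like cells were 11.1% and 0% against 15.4% and 12.1%. An exact permutation test over the mice, two-sided, gave p = 0.333 for both genes, the smallest that 2 against 2 mice allow.

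Cells of this class rich and poor in Aqp2 (at least 5 UMIs, or 0 to 4) differed in other genes of the late distal nephron and collecting duct. The wt mice gave 34 and 17 of the 62 cells with at least 5 Aqp2 UMIs, so pooled values are mostly theirs. Slc12a3, the thiazide-sensitive cotransporter of the distal convoluted tubule, was at 246 CPM in these cells, against 1014 CPM in the other 174. By mouse it was at 153 against 968 CPM and 197 against 1136 CPM in the wt mice, but at 623 against 1209 CPM and 790 against 831 CPM in the ko mice. The ko values rest on few cells: in mouse 1, 2 of 9 Aqp2-rich cells held 74 and 34 of the Slc12a3 UMIs and the others 0 to 9 each, and in mouse 2, 1 of 2 cells held all 56. Calb1, a calcium-binding protein of the late distal and connecting tubule, was at 1154 CPM against 402 CPM, and Hsd11b2, which protects the mineralocorticoid receptor from glucocorticoids, at 505 CPM against 134 CPM. Sodium channel subunits went the same way, with Scnn1g at 296 CPM against 55.8 CPM and Scnn1b at 434 CPM against 120 CPM. Aqp3 itself was at 694 CPM against 141 CPM. Fxyd4 was at 252 CPM against 27.7 CPM and Gata2 at 77.6 CPM against 11.6 CPM, while Trpm6, a magnesium channel of the distal convoluted tubule, was at 9.48 CPM against 7.77 CPM. Trim28 in the ko mice was at 35.4 and 70.5 CPM in the Aqp2-rich cells against 17.04 and 28.9 CPM in the others. With 9 and 2 Aqp2-rich cells in these mice, no order is read from the Trim28 values. All values of Aqp2-rich and Aqp2-poor cells are sums over cells chosen by Aqp2 and carry no test. The summed level of 8 principal cell markers, all with UMIs here, was 768 and 614 CPM in the ko mice and 1189 and 1265 CPM in the wt mice, with 6 of 8 lower in both ko mice. The 8 intercalated markers summed to 197 and 182 CPM against 305 and 376 CPM, with 4 of 8 lower in both ko mice and 0 higher. The 7 distal tubule markers summed to 3455 and 2612 CPM against 2470 and 3978 CPM. The part that principal-like or intercalated-like cells within the class took in the Aqp2 and Aqp3 values was not tested, and a smaller share of Aqp2-expressing cells and less Aqp2 RNA per cell add to the same sum.

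Intercalated-like cells held more Aqp2 in the ko mice, without passing the threshold. Aqp2 was at 969 and 944 CPM in the 10 and 20 cells of the ko mice and at 222 and 321 CPM in the 32 and 25 cells of the wt mice. Both ko mice were above both wt mice, with a log2 fold change of 1.75 (SE 0.25, 95% interval 1.18 to 2.31, adjusted p = 0.071, edgeR). None of 4 members tested passed, against 0.0316% of 6333 genes in edgeR, and DESeq2 placed Aqp2 past the threshold (adjusted p = 5.3e-04) with 0.158% of genes called. Without mouse 3 the log2 fold change was 1.47 (adjusted p = 1.4e-07, edgeR, with 1.52% of genes called), and without mouse 4 it was 2.06 (adjusted p = 2.5e-16, edgeR, with 7.64% called). Aqp2 also passed without ko mouse 2 (adjusted p = 0.0182, edgeR), with no filter on low counts, with another assignment of cells to mice and with the members kept in the clustering, but not without ko mouse 1, where the log2 fold change was 1.74 (adjusted p = 0.598, edgeR). Cells with at least 5 Aqp2 UMIs were 5 of 10 and 8 of 20 against 8 of 32 and 3 of 25, and after thinning Aqp2 was seen in 60% and 45% against 40.6% and 24% of cells. Outside the collecting duct, Aqp2 also had a positive log2 fold change in immune-like (1.45), podocyte-like (1.26) and erythroid-like cells (0.79). Cluster 1 went the other way, at -0.74. Each of these had an unadjusted p under 0.05 in edgeR and none passed. In podocyte-like and immune-like cells the positive change rested on ko mouse 1, the highest of the 4 mice at 229 and 151 CPM. Ko mouse 2 was the lowest of the 4 in both, at 24.1 and 28.3 CPM.

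Markers of principal cells moved with Aqp2 in the intercalated-like class. Their 8 genes summed to 1977 and 1659 CPM in intercalated-like cells of the ko mice and 1509 and 778 CPM of the wt mice, with 5 of 8 higher in both ko mice. Intercalated markers summed to 4465 and 4972 CPM against 4602 and 7156 CPM. With the cells that Scrublet marked as doublets left out, Aqp2 was at 667 and 741 CPM against 147 and 243 CPM, in 9, 17, 26 and 20 cells. The part of cells of mixed identity in the Aqp2 values was not tested beyond that.

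Aqp6, the vesicle channel of intercalated cells, was at 84.4 and 94.9 CPM in the ko mice and 195 and 158 CPM in the wt mice. Both ko mice were lower, but the log2 fold change of -1.03 (SE 0.29, 95% interval -1.67 to -0.39) did not pass (adjusted p = 0.522, edgeR). An Aqp6 UMI was seen in 30% and 40% against 43.8% and 44.0% of cells after thinning, and in 0 to 2.40% of NPC-like cells. Aqp4 was at 105 and 50.9 CPM against 22.7 and 27.7 CPM (log2 fold change 1.49, adjusted p = 0.58, edgeR). Aqp3 overlapped between groups, at 309 and 201 CPM against 286 and 99 CPM.

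In principal-like cells no member passed, and no gene did among 10912 (0%) in edgeR, where 333 genes had an unadjusted p under 0.05 and DESeq2 called 1. Avpr2, the receptor, was at 50.5 and 51.8 CPM in the ko mice and 41.5 and 60.4 CPM in the wt mice. The ko values lay between the wt values, and the log2 fold change was -0.03 (95% interval -0.62 to 0.56). Aqp3 was at 362 and 358 CPM against 320 and 430 CPM, with a log2 fold change of -0.11 (95% interval -0.54 to 0.33). Aqp4 was at 278 and 274 CPM against 125 and 275 CPM, where mouse 3 alone was low (log2 fold change 0.42, 95% interval -0.46 to 1.31, and -0.03 without mouse 3). Aqp5 was at 15.5 and 24.1 CPM against 39.6 and 17.1 CPM, with mouse 3 high (log2 fold change -0.61, 95% interval -1.74 to 0.52, and 0.20 without mouse 3).

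Aqp2 in principal-like cells turned on mouse 3. Its log2 fold change over all mice was 0.26 (95% interval -1.18 to 1.70, adjusted p = 0.956, edgeR). Without mouse 3 it was -0.42 (adjusted p = 5.5e-07, edgeR), and without mouse 4 it was 1.59 (adjusted p = 1.3e-44, edgeR), each with a lone wt mouse. Without mouse 3, 0.569% of the genes tested in this class were called, and without mouse 4, 29.6% were. The mouse 3 cells came from cluster 15, where Aqp2 was at 928 CPM and Elf3, an epithelial transcription factor, at 926 CPM, while cluster 10 held Elf3 at 91.7 and 119 CPM in the ko mice and 83.2 CPM in mouse 4. Its 5 cells in cluster 10 held Aqp2 at 1511 CPM. An Aqp2 UMI was seen in 97.3% and 97.6% of principal-like cells of the ko mice and 92.7% and 100% of the wt mice after thinning, and in 98.2% and 97.6% against 96.1% and 100% unthinned. The difference of 1.10 percentage points gave p = 1 in the exact permutation test over mice.

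**Figure D3:**
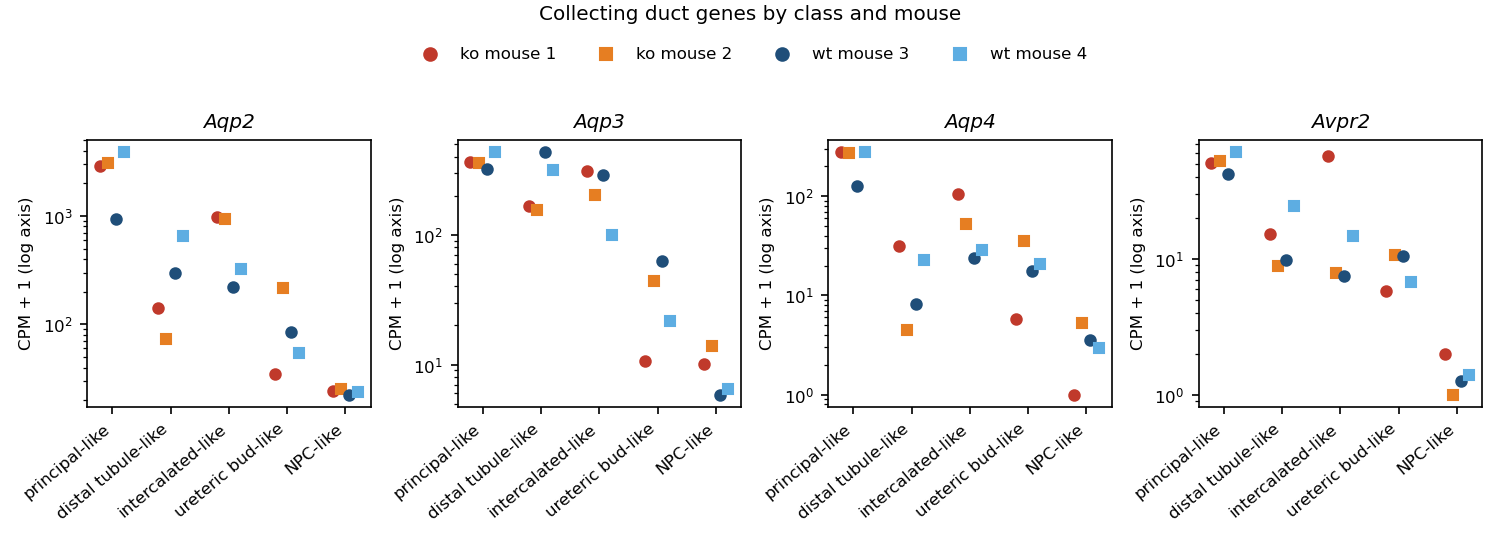
Aqp2, Aqp3, Aqp4 and Avpr2 in 5 classes, by mouse, as CPM + 1 on a log axis. In distal tubule-like cells both ko mice lie below both wt mice for Aqp2 (140 and 72.6 against 297 and 658 CPM) and Aqp3, while in intercalated-like cells the ko mice lie above for Aqp2.

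The difference of these changes between classes was then tested itself, in a comparison chosen after the values were seen. For Aqp2 the log2 fold change in distal tubule-like cells differed from that in principal-like cells by -2.73 (SE 0.37, 95% interval -3.53 to -1.92, adjusted p = 0.0182, edgeR with the mouse as a block). Of 11251 genes, 0.0533% were called in this interaction. Without mouse 3 it was -2.30 (adjusted p = 0.0193, edgeR). For Aqp3 the difference of -1.15 did not pass (adjusted p = 0.45, edgeR). Against intercalated-like cells the difference was -3.90 for Aqp2 (adjusted p = 2.1e-05, edgeR, with 0.235% of 8943 genes called) and -1.64 for Aqp3 (adjusted p = 0.0644, edgeR).

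No proximal tubule member passed in PT-like cells. Aqp1, the constitutive water channel, was at 126 and 130 CPM in PT-like cells of the ko mice and 97.6 and 111 CPM of the wt mice. Both ko mice were higher, by a log2 fold change of 0.30 (SE 0.13, 95% interval 0.01 to 0.59) that did not pass (adjusted p = 0.446, edgeR). None of 6 members tested passed in these cells, where 0.495% of 11506 genes were called. After thinning an Aqp1 UMI was seen in 50% and 56.8% of PT-like cells against 40.8% and 43.1%, and in 80.1% and 84.7% against 68.5% and 78.9% unthinned. The exact permutation test over mice gave p = 0.333, the smallest possible. The thinned difference of 11.5 percentage points shrank to between 3.6 and 5.47 points with finer or coarser clustering, without Scrublet doublets, with another assignment of cells or at a minimum of 2500 UMIs. With the same cells thinned to 2500 UMIs it was -4.54 points, which goes against the CPM, so no order is read from the share. In S-shaped body-like (SSB-like) cells, which should lack Aqp1, the thinned shares were 1.47 to 3.45%, at median depths of 14804 to 16698 UMIs per cell against 22467 to 27548 in PT-like cells.

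Aqp1 was also present outside the PT-like class. In cluster 5 it was at 181 and 203 CPM against 197 and 272 CPM (log2 fold change -0.34, adjusted p = 0.782, edgeR), and without mouse 3, which gave 18 of its 388 cells, the change was -0.52 (adjusted p = 0.0032, edgeR, with a lone wt mouse and 2.55% of genes called). The 9 proximal tubule markers were lower there too, summing to 2393 and 2290 CPM in the ko mice against 3455 and 2863 CPM in the wt mice, with 6 of 9 lower in both ko mice and 0 higher, and their part in the Aqp1 value was not tested. No member passed in that cluster over all mice, with 0.251% of 10763 genes called. With PT-like cells and cluster 5 summed as a single class, the log2 fold change was 0.10 (95% interval -0.34 to 0.54). ErPT-like cells held Aqp1 at 16.4 and 16.9 CPM against 56.8 and 18.3 CPM, where mouse 3 alone was high. The log2 fold change there was -1.27 (adjusted p = 0.591, edgeR). It was -0.12 without mouse 3 and -1.83 without mouse 4, each with a lone wt mouse. Over all cells of a mouse Aqp1 was at 59.3 and 61.6 CPM against 25.2 and 35.4 CPM, a sum that also carries the share of each cell type. Its log2 fold change was 0.95 (adjusted p = 0.104, edgeR, with 0.206% of 16524 genes called).

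Endothelial-like cells, which the transgene does not reach, held Aqp1 at 12.2 and 79.5 CPM in the ko mice and 16.9 and 32.1 CPM in the wt mice. The mice of a genotype differed more than the genotypes (log2 fold change 0.86, 95% interval -0.70 to 2.43). The difference between the change in PT-like and in endothelial-like cells was -0.39 (SE 0.60, 95% interval -1.70 to 0.92, adjusted p = 0.931, edgeR, with 0.0561% of 12488 genes called), so none was detectable between 2 and 2 mice.

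Aqp11 and Aqp7 overlapped between the genotypes. Aqp11 was at 99.6 and 85.3 CPM in PT-like cells of the ko mice and 68.0 and 90.6 CPM of the wt mice (log2 fold change 0.22, 95% interval -0.16 to 0.61). Its thinned share was 51.6% and 42.05% against 30% and 43.1% of cells, with 2.08 to 4.11% in NPC-like cells. Aqp7 was at 15.02 and 12.96 CPM against 13.9 and 14.3 CPM, with a log2 fold change of -0.01 (95% interval -0.52 to 0.49). In SSB-like cells Aqp5 was at 7.36 and 8.28 CPM, from 11 and 18 UMIs, against 0.692 and 2.02 CPM, from 2 and 5 UMIs. Both ko mice were higher there (log2 fold change 2.50, 95% interval 1.18 to 3.82), without passing (adjusted p = 0.104, edgeR, with 0.863% of 11009 genes called). Both wt values lay below the 2.91 CPM of Aqp5 in free RNA. The pair met the filter on low counts through the ko mice alone, so this change is not read further.

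**Figure D4:**
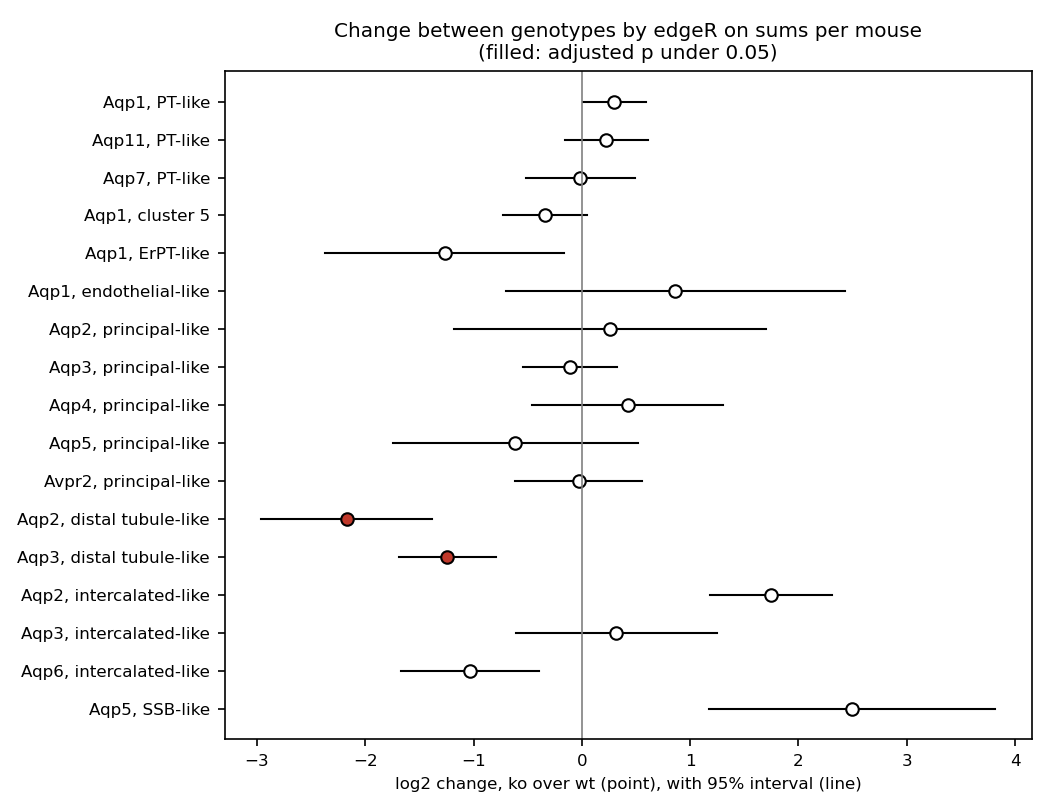
Log2 fold changes (Trim28Δ/Δ over Trim28f/f) of the members in the classes where they are described, with 95% intervals from edgeR. Aqp2 (-2.17) and Aqp3 (-1.24) in distal tubule-like cells are the changes past the adjusted threshold, and the interval of Aqp2 in principal-like cells runs from -1.18 to 1.70.

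The genes that act with these channels were followed through 74 genes in 6 lists: other aquaporins, vasopressin and oxytocin receptors, cAMP signalling, Aqp2 vesicle traffic, solute transport that sets the osmotic gradient, and transcription factors. Of 945 gene-by-class pairs tested, 3 passed (0.317%), a share near the 0.32% of all gene-by-class pairs. In distal tubule-like cells 55 of the 74 were tested, 1 fell, none rose, and 36 had a negative change, with a median of -0.10 beside -0.0048 over all genes tested. The gene that fell was Scnn1g, the gamma subunit of the sodium channel that aldosterone and vasopressin raise. It was at 90.1 and 50.7 CPM in the ko mice and 160 and 174 CPM in the wt mice (log2 fold change -1.25, SE 0.25, adjusted p = 0.035, edgeR). Of the 12 transcription factors 11 were tested and 10 had a negative change, with a median of -0.43. Among them Elf3 (log2 fold change -1.69, adjusted p = 0.0984, edgeR), Gata2 (-1.08, adjusted p = 0.28, edgeR), which is needed for Aqp2 transcription in principal cells, and Elf5 (-1.47, adjusted p = 0.328, edgeR) did not pass. Scnn1g, Gata2 and Elf5 are also among the 8 principal cell markers, of which 6 were lower in both ko mice in this class. Scnn1g and Gata2 were higher in its Aqp2-rich cells, which were fewer in the ko mice. The part of such cells in these changes was not tested. All 20 vesicle traffic genes were tested and none passed, with a median of -0.03.

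In principal-like cells 58 of the 74 were tested, none passed in edgeR and 2 had an unadjusted p under 0.05, with a median of -0.05. The other pairs that passed were both of Slc14a2, the urea transporter of the inner medullary collecting duct, and lay outside the collecting duct. In cluster 5 it was at 90.9 and 46.8 CPM in the ko mice and 0 and 3.50 CPM in the wt mice (adjusted p = 0.0251, edgeR). SSB-like cells gave 29.4 and 18.4 CPM against 1.73 and 3.23 CPM (log2 fold change 3.20, SE 0.42, adjusted p = 0.0041, edgeR). In both classes Slc14a2 met the filter on low counts through the ko mice alone, so these calls are not read further. In principal-like cells, its usual site among these classes, Slc14a2 was at 15.5 and 16.7 CPM against 7.82 and 52.4 CPM.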

How the data were processed

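The authors aligned and counted the reads of the pool with Cell Ranger (6.0.0 by the submitters' processing notes, 4 by the matrix header) and deposited raw counts of UMIs for 32285 genes and 12 tags in 3921239 barcodes, with no normalization. The labels list the builds GRCm38 and mm10, with no role given. The deposited tag list names 4 mice; 4 further tags in use carry no mouse name, and their 4508 cells only entered the assignment. No other columns of per-sample values were left out (0).

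For 24000 expected cells, a minimum of 6890 UMIs, set from the top-ranked barcodes by Cell Ranger's older rule, gave 21385 cells, and the stated filter (200 or more genes, up to 10% mitochondrial UMIs) left 19272. HTODemux of Seurat 5.3.0 assigned 7363 cells to the mice; 4721 cells with several tags were removed as doublets and 2680 had none. Scrublet (scanpy 1.11.5) marked 7.65% of assigned cells, which were left out as an alternative only. Clustering used sctransform 0.4.2, 3000 variable genes less the 7 members among them, 30 components and resolution 0.8. The study projected cells onto an atlas, not used here, so names may differ. A cluster was named for the list with the highest mean log2 ratio of markers to other clusters (10 CPM added), at 0.5 or more, with at least 3 markers 1.5-fold higher and in 10% of cells, at least 1 of its markers among the 10 leading genes and no other list with more there; these limits were chosen with the clusters in view.

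Counts were summed per mouse and class, filtered with filterByExpr, scaled by TMM and tested in edgeR 4.0.16 (quasi-likelihood, R 4.3.3) with Benjamini-Hochberg adjustment over all genes tested in a class. Thinning drew 6800 UMIs per cell. The edgeR fit was tested on counts simulated for the PT-like and principal-like classes, with a fixed dispersion and a common mean over mice. That test does not cover the assignment and clustering of cells or a mouse that stands apart, as mouse 3 did. The members, lists and tests were chosen with earlier results of these data known. Besides the 9 members, genes were named by rule: Trim28, markers, listed genes that passed or whose role is described, the 3 genes most alike to a member of at least 20 CPM, and the 5 leading genes of a described cluster. Alternatives were DESeq2 1.42.0, RLE scaling, no filter, leaving out each mouse, k-means assignment, a minimum of 2500 UMIs, leaving out Scrublet doublets, resolutions 0.4 and 1.2, and members kept in the clustering; sums over all cells, clusters 2 and 5 together, and the interactions of distal tubule-like with principal-like or intercalated-like cells were added after seeing the data, as was thinning to 2500 UMIs, alone or with that minimum.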

Additional observations from a re-analysis of the deposited data

Results flagged for a closer look

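The change of Aqp2 differed between neighbouring classes: the log2 change in distal tubule-like cells was -2.73 relative to that in principal-like cells (adjusted p = 0.0182, edgeR interaction) and -3.90 relative to that in intercalated-like cells (adjusted p = 2.1e-05, edgeR interaction). Both comparisons were chosen after the values were seen, and principal cell markers moved with Aqp2 in both the distal tubule-like and the intercalated-like class, whose part in the result was not tested.

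Aqp6 was higher in both ko mice in endothelial-like cells, where the mean of the ko mice less that of the wt mice was 11.2 CPM, and lower in both in intercalated-like cells, where it was -86.9 CPM. In endothelial-like cells the ko mean rests on 38 UMIs of mouse 2 against 6 of mouse 1. A class was listed here only if its mean over the 4 mice exceeded the level in free RNA. For Aqp6 the endothelial-like mean of 6.77 CPM exceeded the 5.27 CPM of free RNA through mouse 2, at 21.9 CPM. Mouse 1 and both wt mice lay below that level. The 8 intercalated markers moved with Aqp6 in endothelial-like cells. They summed to 31.9 and 116 CPM in the ko mice and 24.7 and 26.9 CPM in the wt mice. Of these, 4 of 8 were higher in both ko mice, and their part was not tested. The difference between these classes was not tested.

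Aqp11 was higher in both ko mice in distal tubule-like cells, with a difference of the means of 6.77 CPM. In ErPT-like cells it was lower in both, with a difference of the means of -10.9 CPM. Neither change passed (adjusted p = 0.802 and 0.651, edgeR). The distal tubule-like mean of 21.5 CPM lay just above the 20.5 CPM of free RNA, and both wt mice lay below it. This difference between classes was not tested either.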

How the results depend on the processing

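Of 395 values recomputed under an alternative, 323 were counted as the same, 26 moved, 19 reversed, 23 came out stronger and 4 weaker. For a change, the same meant the same direction, with the same side of the threshold or no adjusted p. For a share it meant the same sign at any size, and for a count of calls a value within a set fold. For a level it meant the same top class and a move within the spread between mice. The 2 calls of members became 7 with no filter and 1 at resolution 0.4, and from 2 to 21 with a mouse left out, the most without wt mouse 4. The 3 calls in the pathway lists became 26 with no filter, 1 without Scrublet doublets and 1 at resolution 0.4, and from 6 to 116 with a mouse left out. With a mouse left out the lone mouse of a group is assumed to vary like the others. Calls over all genes rose as well, in every class without wt mouse 4 and in every class but PT-like with no filter. With no filter they went from 62 of 9244 to 267 of 17338 genes in distal tubule-like cells. In PT-like cells they went from 57 of 11506 to 13 of 18679. Higher counts in these settings are therefore not read as particular to the members or lists. The Aqp1 difference between PT-like and endothelial-like cells (-0.39) reversed to 0.23 without Scrublet doublets and ran from -1.35 to 1.26 with a mouse left out. The share of principal-like cells with Aqp2 (1.10 points) reversed to -0.13 with all UMIs and ran from -2.53 to 4.73 with a mouse left out, and it was 3.39 at a minimum of 2500 UMIs (3 of 243 ko and 15 of 305 wt cells too shallow to thin), 3.57 with thinning to 2500 in place of 6800 UMIs, 10.7 with both, 3.67 without Scrublet doublets and 0.17 with k-means. That of PT-like cells with Aqp1 (11.5 points) ran from 8.06 to 14.9 with a mouse left out, but shrank to 3.6 at resolution 1.2, 3.94 without Scrublet doublets, 4.42 at resolution 0.4, 5.19 at a minimum of 2500 UMIs (2 of 437 ko and 0 of 196 wt cells too shallow) and 5.47 with k-means, reversed to -4.54 with thinning to 2500 UMIs and was 0.43 with that thinning and that minimum together. The class with the highest Aqp1 level changed from cluster 5 (213 CPM) to PT-like cells at resolution 0.4 (135 CPM), without Scrublet doublets (136 CPM) and at a minimum of 2500 UMIs (145 CPM). At resolution 0.4, where the principal-like class was not ranked, Aqp2 (614 CPM), Aqp3 (224 CPM), Aqp4 (51.5 CPM) and Avpr2 (20.9 CPM) came out highest in intercalated-like and Aqp5 (12.4 CPM) in ureteric bud-like cells, and without Scrublet doublets, where the intercalated-like class was not ranked, Aqp6 did in principal-like cells (4.46 CPM).

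Among single changes, those of Avpr2 in principal-like cells turned to 0.012 with k-means, 0.00087 at a minimum of 2500 UMIs and 0.044 without Scrublet doublets, Aqp7 in PT-like cells to 0.0028 with no filter, and Aqp1 in ErPT-like cells to 0.015 at a minimum of 2500 UMIs, 0.21 at resolution 0.4 and 0.14 at resolution 1.2. With a mouse left out, the ranges that crossed 0 were -0.12 to 0.097 for Aqp7 in PT-like cells, -0.98 to 1.66 for Aqp1 in endothelial-like cells and, in principal-like cells, -0.42 to 1.59 for Aqp2, -0.30 to 0.093 for Aqp3, -0.035 to 1.07 for Aqp4, -1.04 to 0.20 for Aqp5 and -0.28 to 0.23 for Avpr2. The cause of these moves was not tested beyond the samples or cells left out. At resolution 0.4 mouse 3 kept too few principal-like cells for a test or share in that class, and without Scrublet doublets mouse 1 kept 9 intercalated-like cells, so neither was tested. No paired analysis was possible because the mice of the 2 genotypes share no replicate numbers. Depth limits low genes: Aqp5 and Avpr2 outside principal-like cells rest on few UMIs per mouse.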
